A study of Mus musculus with 6 samples.

Results

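The genes described here code for the enzymes with which a cell modifies and removes foreign and endogenous small molecules. They comprise the cytochromes P450 of families 1 to 4, the UDP-glucuronosyltransferases, the cytosolic and microsomal glutathione S-transferases, the sulfotransferases, the carboxylesterases and the flavin-containing monooxygenases. They were picked out by gene symbol, and 151 of the 19054 genes annotated on the array matched. The choice of these families was made with earlier results of these data known. Of these, 46 had a probe detected above the negative-control beads (detection p under 0.01) on at least 3 of the 6 arrays and were tested, among 9921 tested genes in all.

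Whole kidneys were collected from mouse embryos at E18.5 and profiled on Illumina MouseWG-6 arrays, which measure messenger RNA with 1 colour. Each of 3 litters gave 1 pool of FoxD1;Dicer kidneys and 1 pool of Control kidneys, and each pool held the kidneys of 2 embryos. The mutant embryos were FoxD1GC;Dicerfl/fl. Their Cre recombinase, joined to a fluorescent tag, was knocked into FoxD1 (allele FoxD1GC), so that the floxed Dicer allele is lost where FoxD1 is active, which is the stroma, and in the descendants of those cells. The controls were littermates without Cre. The groups therefore differ both in Dicer and in the altered FoxD1 locus, and these cannot be told apart. The FoxD1GC line was kept on a 129-Elite background and the Dicerfl/fl line on C57BL/6J, and no drug was given in the protocols read here. The question was how the loss of miRNAs in the stroma alters gene expression in the kidney as a whole.

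In xenobiotic metabolism, cytochromes P450 and flavin-containing monooxygenases add or expose a reactive group, carboxylesterases cut ester bonds, and transferases then attach glucuronic acid, glutathione or sulfate so that the product can be excreted. In the kidney these enzymes are found mainly in the proximal tubule, which also takes up and secretes organic anions, and their expression rises as the tubule matures around birth. The glutathione conjugates are trimmed by peptidases of the brush border and acetylated to mercapturates before they leave in the urine.

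Between 35.7% and 37.7% of probes were detected on each array, at median intensities of 100.3 to 107.6. Dicer1 itself changed by -0.28 ± 0.11 on the log2 scale (SE, adjusted p = 0.24) and Foxd1 by 0.04 ± 0.22 (adjusted p = 0.95). A dimmer Dicer1 probe was at 6.02, 6.12 and 6.11 in control against 5.40, 5.75 and 5.22 in mutant pools, without overlap. The probes were not placed relative to the deleted exon or the Cre insertion, so none of them checks the labels. The log2 level of the Y-linked gene Eif2s3y was 8.50, 8.43 and 4.39 in control litters 1, 2 and 3, against 8.21, 4.28 and 4.28 in mutant litters 1, 2 and 3. Thus the pools of litter 2 differed in this Y-linked signal, whereas those of litters 1 and 3 were alike. Of 16 tested markers of the proximal tubule, 11 were lower in mutant kidneys, and 0 of 9 renal stroma markers were higher while 3 were lower. Of those 16, 2 were detected on all control and 0 mutant arrays, and so were tested only because of the control pools. Among the leukocyte markers 5 of 6 were higher. Over all tested genes, 3.15% were lower and 2.41% higher. In whole kidneys, fewer cells of a type and less RNA per cell cannot be told apart. The p-values throughout come from a limma fit with litter as a block and are adjusted by the method of Benjamini and Hochberg over all tested probes, and a gene was called when its brightest tested probe had an adjusted p under 0.05.

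The promoters of the members on which the results turn are shown first, as a view of where these transcripts start. Each window covers 250 bases before and 50 bases after the annotated start (RefSeq, GRCm38.p6), and a window was held for 38 of the 46 tested members. Cyp2e1, the member that no mutant array detected, is shown from chr7:140763569-140763868 on the plus strand, and Cyp2d10, one of the called rises, from chr15:82407145-82407444 on the minus strand, with capitals on the TATA motif TATAAA (either strand). The motif begins at base -31 from the start in both, and it was present in 13.6% of the 32851 promoter windows.
Cyp2e1: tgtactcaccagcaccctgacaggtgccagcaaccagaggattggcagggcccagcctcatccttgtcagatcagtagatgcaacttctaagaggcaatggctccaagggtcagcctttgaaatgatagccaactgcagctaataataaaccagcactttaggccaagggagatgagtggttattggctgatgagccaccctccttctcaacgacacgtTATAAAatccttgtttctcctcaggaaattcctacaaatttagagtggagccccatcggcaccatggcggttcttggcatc
Cyp2d10: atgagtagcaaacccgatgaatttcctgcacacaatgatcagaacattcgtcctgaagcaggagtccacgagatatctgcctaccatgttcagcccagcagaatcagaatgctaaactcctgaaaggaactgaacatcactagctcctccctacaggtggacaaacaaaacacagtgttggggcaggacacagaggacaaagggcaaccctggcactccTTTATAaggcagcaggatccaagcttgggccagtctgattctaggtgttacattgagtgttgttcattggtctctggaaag

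Ugt1a10, with the brightest probe of all tested members, is shown from chr1:88055161-88055460 on the plus strand beside Sult1d1, the sulfotransferase with the brightest probe, from chr5:87568957-87569256 on the minus strand. Capitals mark the motif of the hepatocyte nuclear factor HNF1, the half-sites GTTAAT and ATTNAC with 1 base between them, sought on both strands. It was present in 0.0578% of all promoter windows and in these 2 of the 38 members, starting at base -78 in Ugt1a10 and at base -79 in Sult1d1. Ugt1a2, from chr1:88200361-88200660 on the plus strand, lies in the same gene cluster as Ugt1a10 and holds neither this motif nor TATAAA, and it is printed without capitals. A match is a run of letters and was not tested as a binding site.
Ugt1a10: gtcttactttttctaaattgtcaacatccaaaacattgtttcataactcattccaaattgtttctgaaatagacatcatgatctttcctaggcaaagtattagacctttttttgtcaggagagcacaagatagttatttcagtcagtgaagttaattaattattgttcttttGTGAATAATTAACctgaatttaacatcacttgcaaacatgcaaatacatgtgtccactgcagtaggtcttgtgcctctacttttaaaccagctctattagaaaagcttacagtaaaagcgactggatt
Sult1d1: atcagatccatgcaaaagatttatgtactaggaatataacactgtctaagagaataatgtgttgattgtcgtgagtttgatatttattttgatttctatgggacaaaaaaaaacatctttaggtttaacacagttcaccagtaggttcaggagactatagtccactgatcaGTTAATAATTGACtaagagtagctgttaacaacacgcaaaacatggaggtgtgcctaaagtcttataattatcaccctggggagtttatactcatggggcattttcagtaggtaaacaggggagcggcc
Ugt1a2: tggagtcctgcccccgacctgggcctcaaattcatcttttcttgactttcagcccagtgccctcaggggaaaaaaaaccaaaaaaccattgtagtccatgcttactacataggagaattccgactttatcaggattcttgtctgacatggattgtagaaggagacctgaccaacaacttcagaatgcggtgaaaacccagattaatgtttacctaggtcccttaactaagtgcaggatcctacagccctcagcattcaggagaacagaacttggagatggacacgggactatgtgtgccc

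Gsta1, from chr9:78230419-78230718 on the plus strand, and Gsta2, from chr9:78347096-78347395 on the minus strand, are shown because they are close copies that fell side by side. Capitals mark their longest common run, of 29 bases, and the aligned windows were identical at 76.4% of 313 positions.
Gsta1: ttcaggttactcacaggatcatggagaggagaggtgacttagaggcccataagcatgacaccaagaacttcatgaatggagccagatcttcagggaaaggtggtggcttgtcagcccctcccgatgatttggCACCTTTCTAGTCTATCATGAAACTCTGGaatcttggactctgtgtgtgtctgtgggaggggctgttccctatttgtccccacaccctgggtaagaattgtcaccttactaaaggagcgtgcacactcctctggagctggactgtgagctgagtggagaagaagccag
Gsta2: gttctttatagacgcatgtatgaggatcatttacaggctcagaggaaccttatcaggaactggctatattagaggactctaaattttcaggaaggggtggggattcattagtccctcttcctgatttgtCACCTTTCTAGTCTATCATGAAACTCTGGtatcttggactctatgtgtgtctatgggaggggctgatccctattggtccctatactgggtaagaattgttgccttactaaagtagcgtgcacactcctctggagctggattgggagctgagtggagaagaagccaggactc

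Other response motifs were sought in the same windows on both strands. The antioxidant response motif TGACNNNGC was found in Gsta3, Gstm5, Gstm7 and Mgst1, which is 4 of 38 members against 12.4% of all windows, and in 0 of the 7 genes that fell. The dioxin response core GCGTG was found in 13 of 38 members against 32.4% of all windows, and in 3 of those 7. The HNF4 motif CAAAGTCCA was found in 0 members and in 0.475% of all windows. Absence says only that these letters are not in these windows.

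Of the 46 tested members, 10 changed, 7 of them downward and 3 upward. This is 21.7% of members, beside 5.56% of all tested genes (3.15% lower and 2.41% higher). The genes that fell were Cyp2e1, 4 genes of the Ugt1a cluster and 2 alpha-class glutathione S-transferases, and those that rose were the cytochromes P450 Cyp2d10, Cyp4v3 and Cyp2d22. The members did not shift as a body: 26 (beside 47.9% of all genes) had a negative and 20 a positive log2 change, and their median was -0.05, beside 0.01 over all genes. Between groups, 14 members lay wholly below and 12 wholly above the control pools, where 12.1% and 13.8% of all genes did so. The median member change was -0.05 in litter 1, -0.21 in litter 2 and 0.10 in litter 3. Without the Ugt1a and Gsta genes, 4 of 37 members were called, 1 lower and 3 higher, and the median was 0.00. Without litter 2, only 3 members were called, Cyp2e1, Ugt1a2 and Ugt1a5, and 0 members were called higher without litter 1 or without litter 2.

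**Figure D1:**
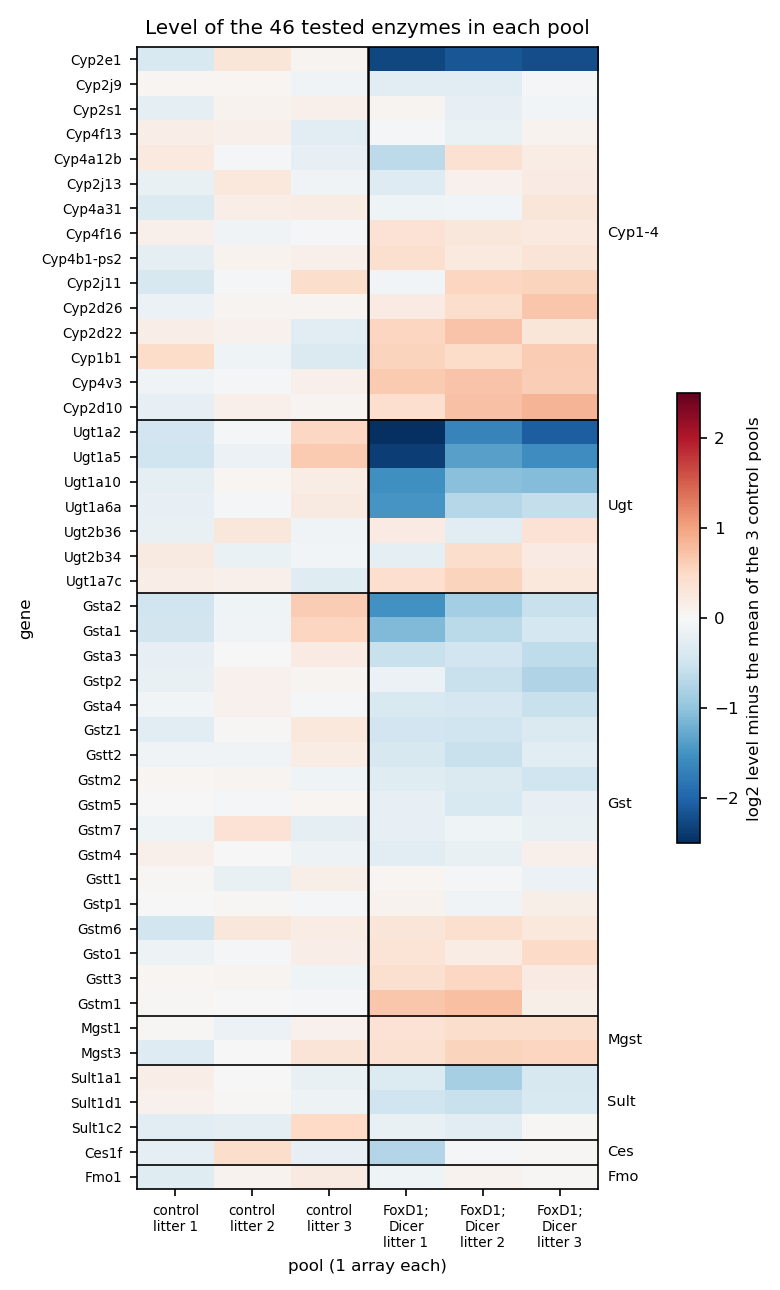
Log2 level of the 46 tested members in each of the 6 pools (columns), as the difference from the mean of the 3 control pools (colour, blue lower and red higher), grouped by enzyme family (rows between lines). Cyp2e1 and 4 Ugt1a genes are blue in every mutant pool, whereas the Cyp2d genes are red there.

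The UDP-glucuronosyltransferases had the lowest median change of the 7 families in the main fit. These enzymes of the endoplasmic reticulum attach glucuronic acid to phenols, steroids and bilirubin. Of 18 annotated genes 7 were tested, 4 fell and 0 rose, with a family median of -0.93. All 4 belong to the Ugt1a cluster on chromosome 1, of which 5 of 8 annotated genes were tested, with a median of -1.21. The rank of the family depended on the filter. Among probes detected on all 6 arrays its median was -0.41, against -0.47 for the sulfotransferases. Without a filter on dim probes it was -0.03, against -0.17 for the cytosolic glutathione S-transferases.

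Ugt1a10 was read by the brightest probe of any tested member, although brightness does not rank transcripts against each other. Its log2 level was 11.76, 12.04 and 12.19 in control litters 1, 2 and 3 (the order kept below), against 10.47, 10.96 and 10.92 in mutant kidneys. All mutant pools lay below all control pools, and the change was -1.21 ± 0.11 (SE, n = 3 litters; 2.32-fold lower, adjusted p = 0.0028 in limma). The deposited intensities were 3655.3, 4071.7 and 5302.7 in control and 1439.2, 2266.7 and 1815.6 in mutant pools. Ugt1a10 kept its direction without litter 2 but not its call (-1.28, adjusted p = 0.051).

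Ugt1a2 and Ugt1a5 fell further. Ugt1a2 stood at 7.54, 7.96 and 8.52 in control pools but at 5.24, 6.33 and 5.94 in mutant pools. The groups did not overlap, and the change was -2.17 ± 0.18 (4.50-fold lower, adjusted p = 0.0024). Ugt1a5 stood at 6.88, 7.24 and 8.03 against 5.02, 6.02 and 5.84, again without overlap, and was detected on 2 of 3 mutant arrays. Its change was -1.75 ± 0.18 (3.37-fold lower, adjusted p = 0.0045). These folds lie on the background-corrected scale. Without background correction they were smaller, at -1.27 for Ugt1a2 and -0.92 for Ugt1a5, and in the authors' processed values -1.04 and -0.72, with both genes still called.

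Ugt1a6a, whose product conjugates small planar phenols, was at 6.78, 6.94 and 7.21 in control pools but at 5.50, 6.26 and 6.39 in mutant pools. No mutant pool reached a control pool, and the change was -0.93 ± 0.14 (1.91-fold lower, adjusted p = 0.016). It was no longer called when litter was not modelled (adjusted p = 0.060) or when litter 2 was left out (adjusted p = 0.095), and its change was -0.48 without background correction and -0.37 in the authors' values.

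Ugt1a7c went the other way within the same cluster. It was dim, at 5.95, 5.91 and 5.48 in control and 6.20, 6.34 and 6.05 in mutant pools. Although every mutant pool was above every control pool, the change of 0.41 ± 0.11 was not called (adjusted p = 0.10), and a dimmer probe gave -0.17 ± 0.14 (adjusted p = 0.55). Ugt1a1, the bilirubin-conjugating enzyme, Ugt1a6b and Ugt1a9 were detected on 0 arrays. In RefSeq, 7 of the 9 Ugt1a genes end at one common base, including all 5 tested here. The position of each probe was not known here, so a probe in shared sequence would read several of these genes at once and the 4 falls may not be separate measurements.

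The 5 tested probes annotated to Ugt1a10 did not move alike. The 3 bright ones, with control means of at least 10.41, changed by -1.21, -1.14 and -1.21 and were all called. The 2 dim ones, at 6.28 and 6.24, changed by 0.09 ± 0.11 (adjusted p = 0.71) and -0.38 ± 0.20 (adjusted p = 0.37). Outside the cluster, Ugt2b34 changed by 0.14 ± 0.20 (adjusted p = 0.74) and Ugt2b36 by 0.10 ± 0.20 (adjusted p = 0.83), and they were the only tested members of 10 annotated Ugt2 genes.

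**Figure D2:**
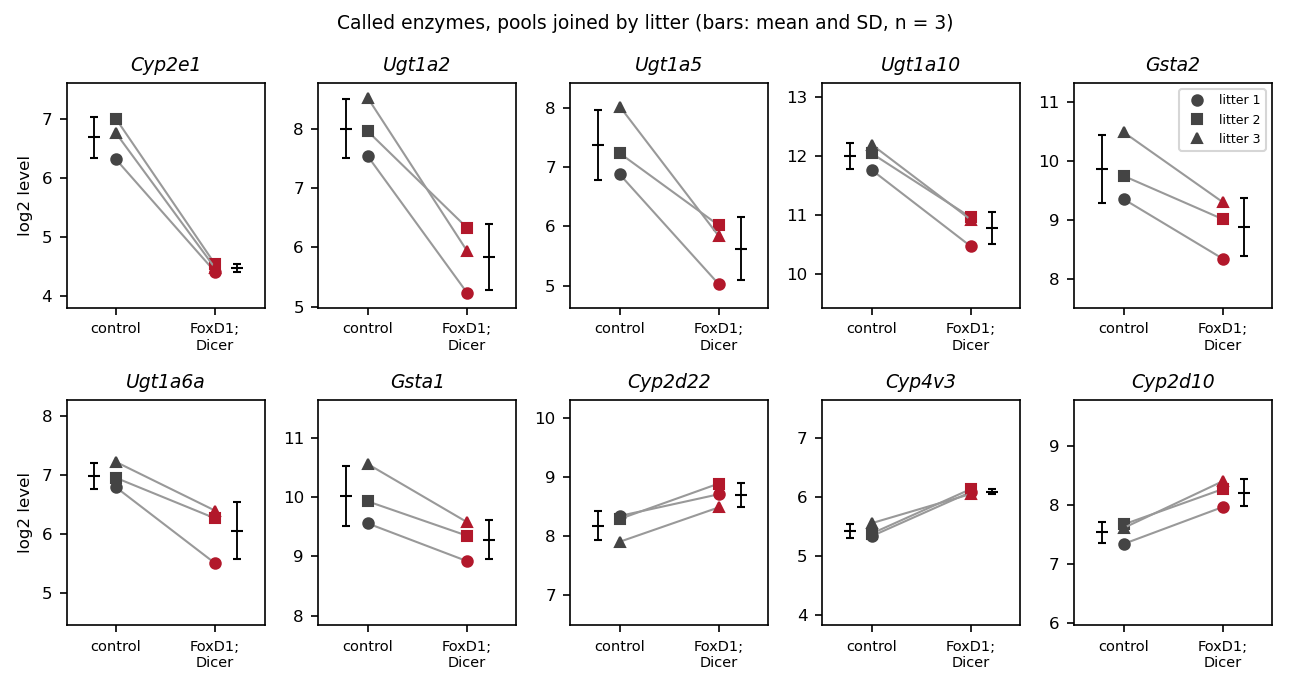
Log2 level (vertical axis, each panel spanning the same range) of the 10 called members in control (grey) and FoxD1;Dicer pools (red), with lines joining the pools of a litter and bars giving the mean and SD of 3 pools. All 7 falling genes drop and all 3 rising genes climb in each litter, and for 6 of the 7 falling genes the control pools stand in the order of litters 1, 2 and 3.

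The cytochromes P450 held 1 called fall and all 3 called rises. These haem enzymes insert an oxygen atom into their substrates. Of 70 annotated genes in families 1 to 4, only 15 were tested, of which 1 fell, 3 rose and 11 were not called. Their median was 0.29, with medians of 0.24, 0.36 and 0.29 in litters 1, 2 and 3. The 13 annotated genes of the Cyp2c and the 7 of the Cyp3a subfamily, which metabolise many drugs in the adult liver, were detected on 0 arrays, as were Cyp1a1 and Cyp1a2.

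Cyp2e1, which oxidises small molecules such as ethanol, acetone and paracetamol, was the only member detected on all arrays of one group and none of the other. Its level was 6.31, 6.99 and 6.75 in control but 4.41, 4.54 and 4.47 in mutant pools. The mutant values lay far below the lowest control pool and were detected on 0 arrays. Their closeness is therefore that of background signal and does not measure how the gene varies between pools, and the SE below shares this limit. The fitted change was -2.21 ± 0.13 (adjusted p = 0.00096), which as a bound is at least 3.57-fold lower, because the mutant arrays did not detect it. It passed the filter on detection only through the control arrays, where it was high, and among the 40 members detected on all 6 arrays, which leave it out, 8 were called. The differences were -1.90 in litter 1 and -2.28 in litter 3, whose pools matched in Eif2s3y, and -2.45 in litter 2, whose pools did not. The deposited intensities were 162.7, 204.2 and 197.2 in control and 101.6, 107.3 and 98.6 in mutant pools, so that without background correction the change was -0.86 and in the authors' processed values -0.61, both still called.

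Cyp2e1 is also abundant in liver. Of 12 hepatocyte markers, 7 were tested and 0 called, and Alb, Cps1, Fgb and Tat were detected on 0 arrays. Of these 7, 3 had a negative and 4 a positive change, with a median of 0.02. Apoa2 (-0.70 ± 0.15, adjusted p = 0.052) and Fga (-0.68 ± 0.16, adjusted p = 0.064) were lower in all 3 litters at their brightest probes, Fga without overlap. At a dimmer Fga probe the groups overlapped, and at a dimmer Apoa2 probe both pools of litter 2 were at 5.39. The summed linear level of the list was 604 to 732 in control and 539 to 697 in mutant pools. Of 10 adrenal cortex markers, 9 were detected on 0 arrays. The part of liver RNA in the Cyp2e1 difference was not tested.

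Of the 3 tested Cyp2d genes, 2 rose. Their products are monooxygenases of the subfamily that, in humans, oxidises many basic drugs. Cyp2d10 was at 7.34, 7.67 and 7.61 in control and 7.96, 8.27 and 8.40 in mutant pools, a change of 0.67 ± 0.11 (1.59-fold higher, adjusted p = 0.018). Cyp2d22 was at 8.34, 8.29 and 7.90 against 8.70, 8.89 and 8.48, a change of 0.52 ± 0.11 (1.43-fold higher, adjusted p = 0.048). In neither gene did the groups overlap.

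Cyp2d22 lay at the edge of the threshold and lost its call without litter as a block (adjusted p = 0.12), under median scaling (adjusted p = 0.069) and without any 1 litter. Cyp2d26, the P450 with the brightest probe, changed by 0.45 ± 0.11 at its brightest probe and was not called (adjusted p = 0.082), with 9.34, 9.55 and 9.55 in control and 9.68, 9.92 and 10.18 in mutant pools. Its dimmer probes rose by 0.82 ± 0.10 (adjusted p = 0.0078) and 0.73 ± 0.11 (adjusted p = 0.014), and all mutant pools lay above all control pools at the brightest. The remaining 5 of 8 annotated Cyp2d genes were not tested. The 3 tested Cyp2d genes all lie on chromosome 15, and cross-hybridisation between them was not tested.

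Cyp4v3, related to a human fatty acid hydroxylase, was the other gene that rose. It was dim, at 5.34, 5.38 and 5.56 in control and 6.08, 6.13 and 6.05 in mutant pools. The mutant pools lay within a narrow band above the controls, and the change was 0.66 ± 0.11 (1.58-fold higher, adjusted p = 0.022). It was 0.26 without background correction (adjusted p = 0.052) and 0.19 in the authors' processed values (adjusted p = 0.096), where it was not called.

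The other tested P450s were not called. Cyp1b1, which oxidises oestrogens and polycyclic hydrocarbons, changed by 0.55 ± 0.17 (adjusted p = 0.15) with overlapping groups. Cyp4f16 changed by 0.29 ± 0.10 (adjusted p = 0.19), and its 3 probes ranged from -0.04 to 0.36. Of the arachidonic acid epoxygenases Cyp2j9, Cyp2j11 and Cyp2j13, none was called, at -0.19, 0.35 and 0.00. The fatty acid hydroxylases Cyp4a12b and Cyp4a31 changed by -0.03 and 0.04, with 95% intervals of -0.64 to 0.58 and -0.26 to 0.34.

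**Figure D3:**
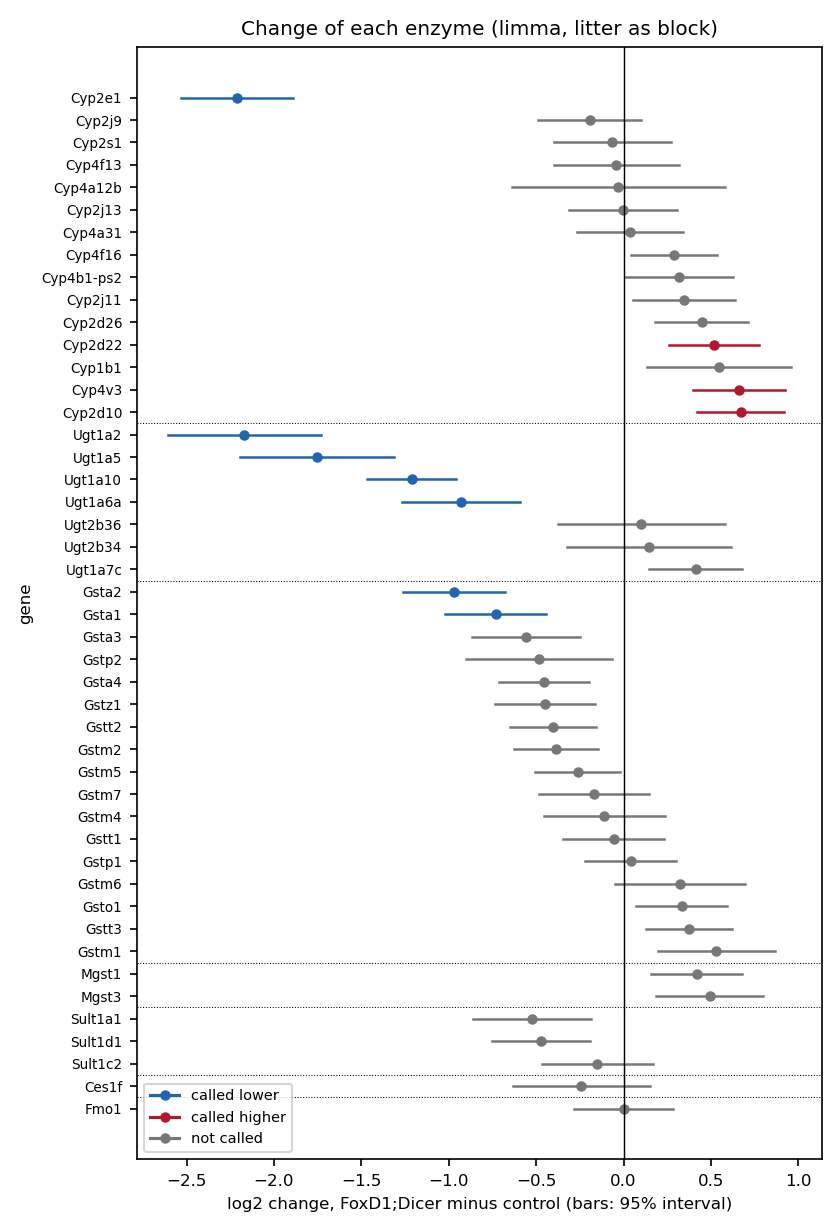
Fitted log2 change (horizontal axis, FoxD1;Dicer minus control) of each tested member with its unadjusted 95% interval, grouped by family and coloured by call at an adjusted p under 0.05. The fitted changes of the called falls reach from -0.73 to -2.21 and the called rises from 0.52 to 0.67.

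Both called falls among the cytosolic glutathione S-transferases were alpha-class genes. These enzymes couple glutathione to electrophiles, and the alpha class also reduces lipid hydroperoxides. Of 21 annotated genes 17 were tested, 2 fell, 0 rose and 12 had a negative change, with a median of -0.26. This count depended on the processing, with 7 lower and 3 higher both without background correction and with an intensity trend in the prior variance, 7 and 2 in the authors' processed values, and 0 called without litter 2. Gstm2, Gstt2 and Gstz1 were among the 7 in each of the first 3 settings, which called 8.14%, 8.72% and 6.79% of all tested genes. In the alpha class all 4 annotated genes were tested, all 4 were lower in every litter, where 21% of all tested genes were, and their median was -0.64. The 13 tested genes of the other classes had a median of -0.11, with 0 called, and the difference between classes was not tested.

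Gsta2 was at 9.36, 9.75 and 10.49 in control and 8.35, 9.02 and 9.31 in mutant pools. The highest mutant pool was just under the lowest control pool, and the change was -0.97 ± 0.12 (1.96-fold lower, adjusted p = 0.0084). Gsta1 was at 9.56, 9.93 and 10.56 against 8.92, 9.35 and 9.58. Here the groups overlapped, since the mutant pool of litter 3 slightly exceeded the control pool of litter 1, but every litter fell and the change was -0.73 ± 0.12 (1.66-fold lower, adjusted p = 0.021).

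Both genes depended on the pairing by litter, with adjusted p of 0.14 for Gsta2 and 0.18 for Gsta1 without the block, and neither was called without litter 2 (adjusted p of 0.063 and 0.14). Without litter 1, Gsta1 was not called (adjusted p = 0.0501). The dimmer Gsta1 probes gave larger fitted changes, of -1.88 ± 0.11 (adjusted p = 0.00096) and -1.29 ± 0.16 (adjusted p = 0.0080), from control means of 6.60 and 6.02 to 4.72 and 4.73. Both were detected on all 3 control arrays, but on only 1 and 0 mutant arrays. The second thus passed the filter on detection only through the control arrays, and the size of both changes is uncertain near background. Whether the Gsta1 and Gsta2 probes read only their own transcript was not tested.

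Gsta3 and Gsta4, the latter specialised for lipid aldehydes such as hydroxynonenal, had changes of -0.56 ± 0.13 (adjusted p = 0.067) and -0.45 ± 0.11 (adjusted p = 0.069). Neither was called, although all their mutant pools lay below all control pools. Gsta3 stood at 8.71, 8.90 and 9.12 against 8.36, 8.44 and 8.27.

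The cytosolic transferase with the brightest probe was Gstm2 of the mu class, at 11.44, 11.46 and 11.30 in control and 11.10, 11.03 and 10.91 in mutant pools. Its groups did not overlap, but its change of -0.39 ± 0.10 was not called (adjusted p = 0.093), and its 3 probes gave -0.39, -0.29 and -0.32. Gstm1 of the same class differed in sign, at 9.02, 8.99 and 8.97 in control and 9.69, 9.74 and 9.14 in mutant pools (0.53 ± 0.14, adjusted p = 0.095). The 6 tested mu-class genes thus ranged from -0.39 to 0.53, and 0 were called.

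Gstp1, the pi-class enzyme, was nearly level at 11.11, 11.12 and 11.08 in control and 11.18, 11.02 and 11.24 in mutant pools. Its change was 0.04 ± 0.11, with a 95% interval of -0.22 to 0.30, and its sign was not stable, being -0.07 as the mean of its 3 probes and -0.02 without litter 3. Gstz1, the maleylacetoacetate isomerase of tyrosine breakdown, changed by -0.45 ± 0.12 (adjusted p = 0.098) and Gsto1, a dehydroascorbate reductase, by 0.33 ± 0.11 (adjusted p = 0.16). In the theta class, Gstt2 and Gstt3 had opposite signs, at -0.40 ± 0.10 (adjusted p = 0.086) and 0.37 ± 0.10 (adjusted p = 0.11).

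**Figure D4:**
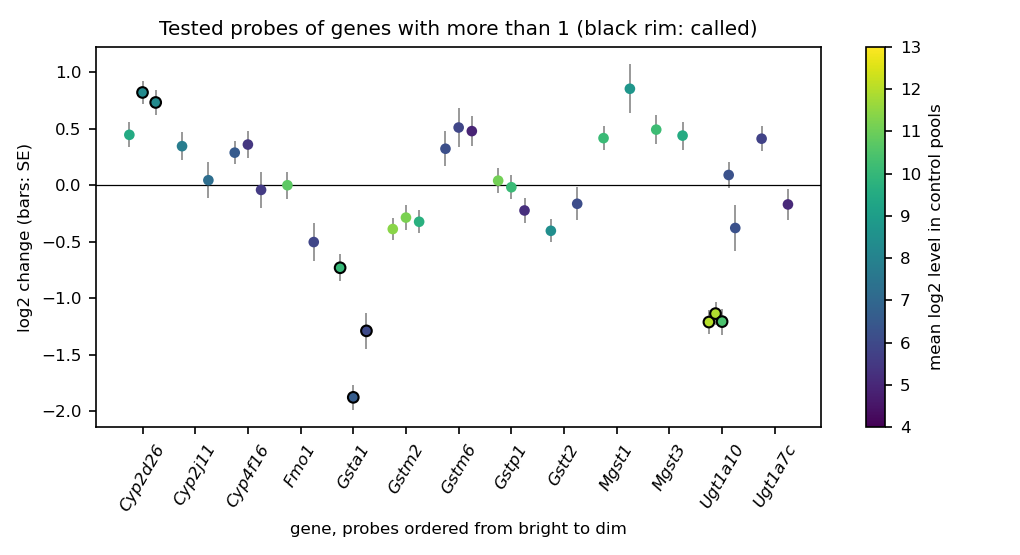
Log2 change with its SE (vertical axis) of every tested probe of the 13 members with more than 1 tested probe, coloured by the mean level in control pools, with a black rim where the probe was called. The 3 bright Ugt1a10 probes fall together near -1.2 while its 2 dim probes stay between -0.38 and 0.09, and the 3 Gsta1 probes all fall. The 2 dimmer Gsta1 probes were detected on 1 and 0 mutant arrays.

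The microsomal glutathione S-transferases, membrane proteins that also act as peroxidases, had positive changes that were not called in the main fit. Mgst3 was at 9.83, 10.16 and 10.49 in control and 10.55, 10.71 and 10.70 in mutant pools (0.49 ± 0.13, adjusted p = 0.092). Mgst1 was at 10.13, 9.96 and 10.20 against 10.46, 10.54 and 10.54 (0.42 ± 0.11, adjusted p = 0.093). In both, all mutant pools lay above all control pools. Both were called higher without background correction, in the authors' processed values and with an intensity trend in the prior variance. These settings called 8.14%, 6.79% and 8.72% of all tested genes. Neither was called without litter 2 (adjusted p of 0.39 for Mgst3 and 0.43 for Mgst1).

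The 3 tested sulfotransferases had negative changes, and 0 of them was called. Sult1d1, which in mice sulfates catecholamines, was at 10.07, 9.99 and 9.84 in control and 9.47, 9.42 and 9.59 in mutant pools, without overlap (-0.47 ± 0.12, adjusted p = 0.079). It was called in 5 of 11 alternative settings, among them the fit in which litter was not modelled (adjusted p = 0.049). The others were no background correction (adjusted p = 0.016), the authors' processed values (0.028), an intensity trend in the prior variance (0.010) and the fit without litter 3 (0.046). Sult1a1, a phenol sulfotransferase, changed by -0.52 ± 0.14 (adjusted p = 0.10) and Sult1c2 by -0.15 ± 0.13 (adjusted p = 0.60).

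A single member of each of the other families was tested. Fmo1, a monooxygenase that oxidises nitrogen and sulfur atoms in drugs, was at 10.44, 10.82 and 10.96 in control and 10.64, 10.82 and 10.76 in mutant pools. Its change was 0.00 ± 0.12 with a 95% interval of -0.28 to 0.28. A dimmer Fmo1 probe gave -0.50 ± 0.17 (adjusted p = 0.16). The carboxylesterase Ces1f changed by -0.24 ± 0.17 (adjusted p = 0.47).

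The remaining 105 members could not be tested. Of these, 96 were detected on 0 arrays, and Ces1d, Ces1g, Cyp2d40, Cyp4b1, Cyp4f17, Fmo2, Fmo4, Sult2b1 and Sult5a1 on 1 or 2. Just outside the limit of 3 arrays, Ces1d was at 4.70, 5.30 and 5.28 in control and 4.96, 4.90 and 4.64 in mutant pools, and Cyp2d40 at 4.99, 4.85 and 4.59 against 5.06, 5.01 and 5.44. Just inside it were Cyp2e1, detected on the 3 control arrays, and Gstp2, detected on 2 control arrays and 1 mutant array, which changed by -0.49 ± 0.18 (adjusted p = 0.19). A member that no array detected may be absent or below the reach of its probe.

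Genes that act with these enzymes were counted from lists drawn up with earlier results of these data known. After glutathione conjugation, the mercapturate pathway cuts and acetylates the conjugate. Of 8 genes listed for it only 4 were tested, and all 4 fell, where 3.15% of all tested genes did. These were the dipeptidase Dpep1 (-1.35 ± 0.25, adjusted p = 0.033), the aminopeptidase Anpep (-0.94 ± 0.16, adjusted p = 0.021), the acetyltransferase Nat8 (-0.87 ± 0.17, adjusted p = 0.038) and the aminoacylase Acy1 (-0.65 ± 0.14, adjusted p = 0.0497).

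Partner genes on the supply side were not called. Of 9 tested genes for electron donors and haem synthesis 0 were called, with a median of 0.04. Of 7 tested genes that make or carry glutathione, UDP-glucuronic acid or activated sulfate 0 were called, all 7 with a negative change and a median of -0.18. Of 9 tested receptors and transcription factors of drug metabolism 0 were called, with a median of -0.16, among them Hnf4a at -0.16 ± 0.11 (adjusted p = 0.47).

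Cytochromes P450 outside families 1 to 4 mainly handle sterols and vitamins. Of 7 tested genes 3 were lower, where 3.15% of all tested genes were. The genes that fell were Cyp27b1, which activates vitamin D in the proximal tubule (-1.42 ± 0.21, adjusted p = 0.016), the cholesterol synthesis gene Cyp51 (-1.02 ± 0.17, adjusted p = 0.020) and the oxysterol hydroxylase Cyp7b1 (-0.67 ± 0.11, adjusted p = 0.022). Cyp27b1 was at 6.48, 6.03 and 7.38 in control and 4.38, 5.06 and 6.18 in mutant pools. Its groups overlapped, and it was detected on 5 of the 6 arrays. Of 23 other tested detoxifying enzymes, the monoamine oxidase Maob and the carbonyl reductase Cbr1 were lower and the lactonase Pon3 was higher. The shares of all tested genes were 3.15% lower and 2.41% higher. Cbr1 changed by -0.68 ± 0.11 (adjusted p = 0.018) and Pon3 by 0.58 ± 0.11 (adjusted p = 0.033). Maob was detected on all 3 control arrays and 0 mutant arrays.

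Of the 16 tested proximal tubule markers, 15 had a negative change, where 47.9% of all tested genes did, and 1 a positive. That 1, Slc7a9, was at 8.77, 8.77 and 9.03 in control and 9.26, 9.48 and 9.38 in mutant pools. Its groups did not overlap, and its change of 0.52 was not called. The median change of the 16 was -0.71, with 2 of them detected on control arrays only. The summed linear level of the list was 15120 to 21480 in control and 8775 to 11750 in mutant pools. Over all 6 arrays Slc34a1 and Amn had the brightest probes of the list. The phosphate transporter Slc34a1, changed by -0.71 ± 0.11 (adjusted p = 0.015), whereas Amn, a partner of the endocytic receptor cubilin, changed by -0.21 ± 0.10 (adjusted p = 0.33). The endocytic receptor Lrp2, whose probe was brighter than that of Amn in control pools and which is named after its values were seen, changed by -1.47 ± 0.10 (adjusted p = 0.0015). Averaged over the 16 markers, the log2 level was 8.14, 8.53 and 8.73 in control pools against 7.29, 7.69 and 7.59 in mutant pools. Averaged over the 5 tested Ugt1a genes, it was 7.78, 8.02 and 8.29 against 6.49, 7.18 and 7.03. The control pools were in the same order in both, with litter 1 lowest and litter 3 highest. This order was not particular to them: the 4 Gsta genes (9.21, 9.49 and 9.85) and all 46 tested members (7.89, 8.04 and 8.07) had it too. In the hepatocyte and leukocyte lists litter 2 was lowest. The part of the proximal tubule in the falls was not tested, and neither was that of the leukocyte markers, whose summed level was 529 to 756 in control and 1306 to 1592 in mutant pools, in the rises.

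**Figure D5:**
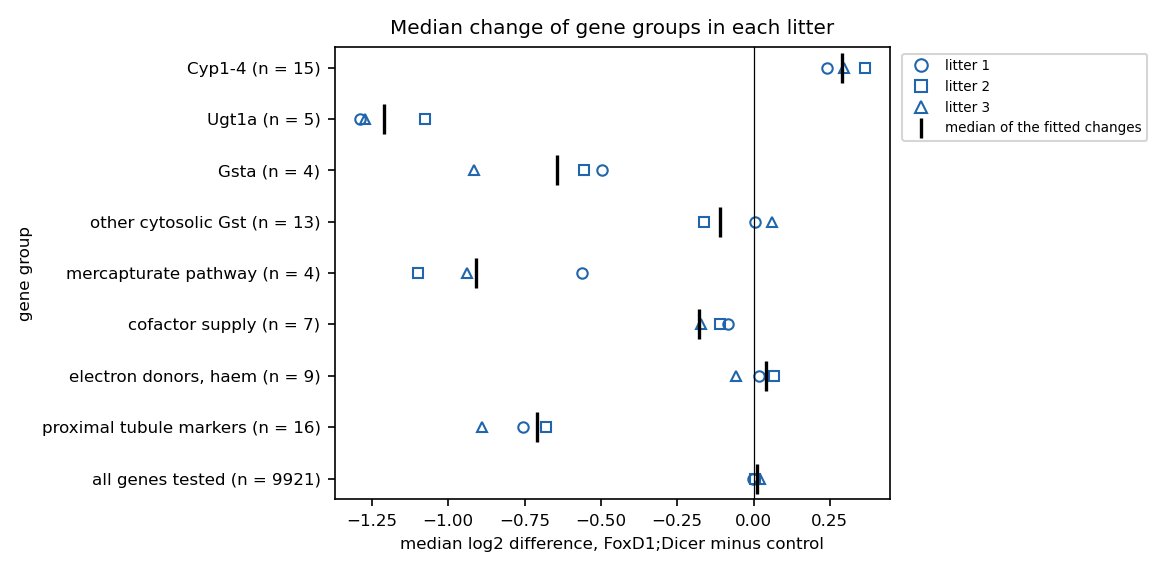
Median log2 difference between the FoxD1;Dicer and control pool of each litter (open symbols) and median of the fitted changes (black bars) for groups of members, for the lists of partner genes, for proximal tubule markers and for all tested genes. The Ugt1a, Gsta, mercapturate, cofactor supply and proximal tubule medians lie below 0 in each litter, and the Cyp1-4 median lies above 0 in each.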

How the data were processed

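Per the file headers, the deposited intensity table gives every probe an intensity on a linear scale with its detection p-value, array by array, before any background correction or normalization. A second deposited table holds the authors' processed log2 values, made with lumi, which were used as an alternative. Of 45281 probe entries, 8 were damaged and left out. The platform annotation gave 1 symbol to 34877 probes, and RefSeq (GRCm38.p6) held 34799 of them.

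The neqc function (limma 3.58.1, R 4.3.3, offset 16) corrected the background, applied quantile normalization and took log2. Probes with a detection p under 0.01 on at least 3 arrays were kept (16899). Genotype was fitted with lmFit and eBayes, and litter entered as a block because the study's model had it. This left 2 residual degrees of freedom, and the prior added 4.76. The SE is moderated by that prior. The median SE was 0.12, and the number of arrays limits the precision. Groups and litters came from the sample labels. The deviations of same-litter pools from their group means correlated at 0.19, 0.18 and 0.14 across probes for litters 1, 2 and 3. Pools of different embryos were the replicates.

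Each gene has the value of its brightest tested probe. Folds are antilogs of log2 changes. A bound ("at least") sets the control mean against, per array, the higher of the lowest detected value and the probe's own. The genes named are the called members that changed alike in all litters, the member with the brightest probe in each family, members detected in 1 group only or whose probes disagree, called genes of the partner lists, and the pair of brightest proximal tubule markers. Others were named after their values were seen. The members and lists were chosen with earlier results of these data known. The fit was tested on simulated data, where it recovered the seeded changes. Alternatives were the fit without the block, median scaling, no background correction, the authors' values, other filters, the mean over probes, an intensity trend in the prior, a B-statistic threshold, and each litter left out.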

Additional observations from a re-analysis of the deposited data

How the results depend on the processing

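With 10 members called, the fit without litter as a block called 8 members and 528 genes, where the fit with the block called 552 genes, and 6 of the members were shared. Without it Gsta1, Gsta2, Ugt1a6a and Cyp2d22 were not called and Gsta3 and Sult1d1 were. More members were called without background correction (21, of which 13 lower and 8 higher) and in the authors' processed values (20, of which 13 and 7). An intensity trend in the prior variance gave 22, of which 13 and 9. Over all tested genes these 3 settings called 808, 674 and 865. This is 8.14%, 6.79% and 8.72% of genes, beside 45.7%, 43.5% and 47.8% of members. Without a filter on dim probes, 6 of 151 members and 265 of 19054 genes were called. A B-statistic above 0 called 343 genes. Leaving out 1 litter gave 3 to 13 members and 44 to 538 genes called, with a median member change of -0.11 to -0.05. The lowest counts came without litter 2, which left 3 members and 44 genes. Cyp2e1 and Ugt1a5 were called in all 10 alternatives that tested them and Ugt1a2 in all 11, apart from the B-statistic, which also called them. The changes near 0 of Fmo1 and Gstp1 turned sign. Fmo1 was -0.0232 under median scaling, -0.000397 without background correction, -0.251 as the mean of its probes and -0.101 to 0.101 with 1 litter left out, the lowest without litter 1. Gstp1 was -0.0666 as the mean of its probes and -0.0181 to 0.114 with 1 litter left out, the lowest without litter 3. The cause was not tested. Dim probes, close to the background, limit the folds of Cyp2e1, Ugt1a2, Ugt1a5 and Cyp4v3, which were smaller without background correction.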
